A study of Mus musculus with 17 samples.

Results

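In all, 7 genes of the hepatic fasting programme were followed through RNA and a histone mark in the livers of mice fed a high-fat diet: the nuclear receptor gene Ppara, the membrane-bound transcription factor gene Creb3l3, the hormone gene Fgf21, the lipoprotein gene Apoa4, the pantetheinase gene Vnn1, the lipase inhibitor gene Angptl4 and the coactivator gene Ppargc1a. They were taken by gene symbol from a table of 12334 genes, in which all 7 were listed. Regions of acetylation of histone H3 at lysine 9 (H3K9ac, a mark of active promoters and enhancers) were taken where the authors had named 1 of the 7 as the gene with the nearest transcription start, which gave 43 of 57499 regions. The mice were of the C57BL/6 inbred strain and no genetic change is labelled. The high-fat diet (HFD) drew 60% of its calories from fat and the control diet (CD) 18%, each eaten for 10 weeks. Each diet had RNA libraries (polyadenylated RNA) from 4 livers, lettered A to D, and H3K9ac libraries from 3, lettered A, C and D under CD and A, B and D for HFD. The labels give neither sex nor age, neither the hour of collection nor whether the mice had eaten, and do not say whether the same letter in both assays is the same animal. The RNA column headings carry numbers that lie in separate ranges for the diets, and what these mark is not stated and cannot be told apart from diet. The livers are whole tissue, so fewer cells of a type and less RNA per cell cannot be told apart.

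PPAR-alpha, the product of Ppara, is a receptor that fatty acids activate during fasting, when it pairs with RXR and switches on fatty acid oxidation and ketone body synthesis. CREB3L3 sits in the endoplasmic reticulum membrane until proteases release its transcription factor part, and it cooperates with PPAR-alpha at Fgf21 and at apolipoprotein genes. Both regulators act in hepatocytes, and glucagon, insulin, feeding time and the circadian clock all bear on their targets. Total counts were 31802893 to 37596560 per RNA library and 9255635 to 12149497 per H3K9ac library. Of 10 hepatocyte markers 9 were in the RNA table, and their summed level was 103500 to 118400 counts scaled to library size (CPM) in CD and 117200 to 134700 CPM in HFD.

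In the RNA 4 of the 7 genes rose in HFD and the other 3 did not pass the test, the quasi-likelihood F test of edgeR adjusted over all genes by the Benjamini-Hochberg method at a threshold of 0.05. Of all genes 7.27% passed, 3.63% as higher and 3.64% as lower. Apoa4, Ppara, Ppargc1a and Vnn1 rose, and each had HFD livers that all lay above all CD livers; over all genes the diets did not overlap in 14.3%, and in 7.26% with HFD above. Creb3l3, Fgf21 and Angptl4 had overlapping diets. The median log2 change of the 7 was 0.59, beside 0.01 over all genes. The 7 were chosen with earlier results of these data known, so these comparisons are descriptions. By the authors' deposited table the same 4 genes were below a false discovery rate of 0.05, as were 10.2% of all genes.

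Levels between the genes were compared on the deposited log2 FPKM scale, which divides by gene length. In CD the order of levels was Apoa4 (6.84), Creb3l3 (6.70), Ppara (5.12), Angptl4 (4.38), Vnn1 (4.02), Fgf21 (0.80) and Ppargc1a (0.18). The ranges over 4 livers overlapped between Apoa4 and Creb3l3, between Angptl4 and Vnn1, and between Fgf21 and Ppargc1a, so these neighbours were not separated. In HFD Apoa4 (8.75) stood clear of Creb3l3 (6.84), Ppara lay at 6.11, and Vnn1 (4.62) and Angptl4 (4.53) again overlapped, as did Ppargc1a (1.13) and Fgf21 (0.39).

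**Figure D1:**
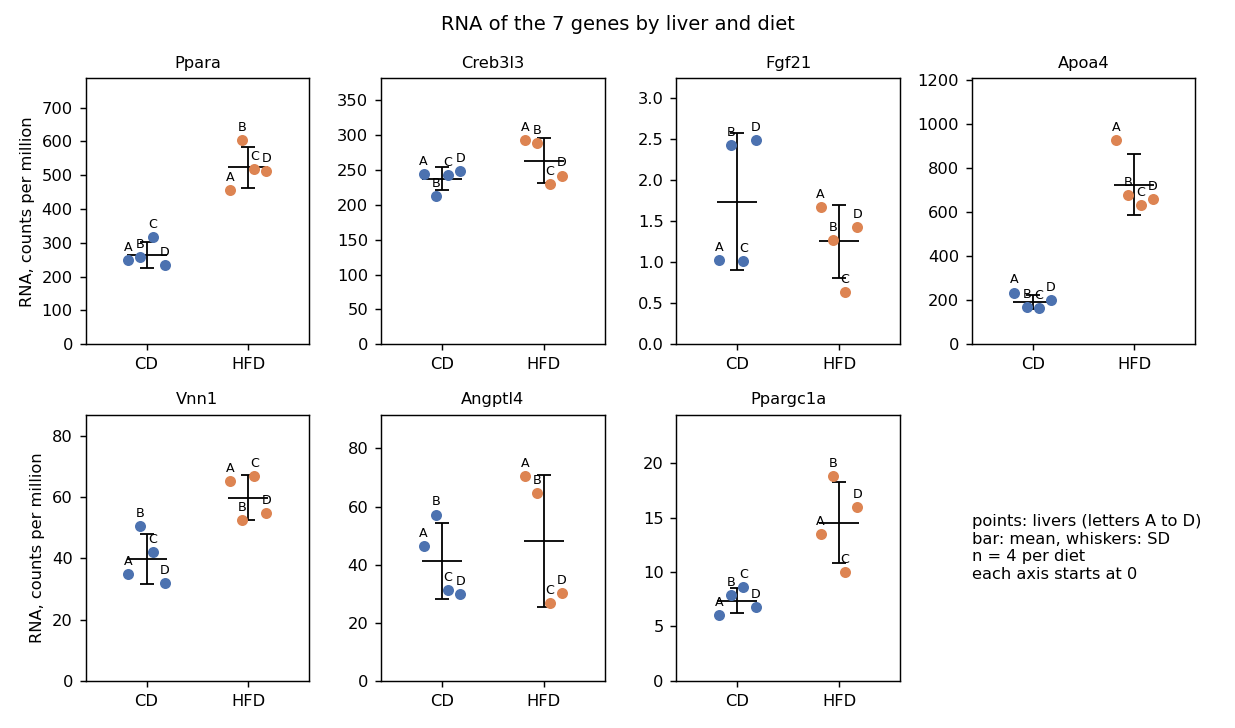
RNA level of each gene in CPM (vertical axes, each from 0) in the 4 CD and 4 HFD livers, with the mean and SD. Ppara, Apoa4, Vnn1 and Ppargc1a have HFD livers that all lie above the CD livers, Fgf21 lies under 2.5 CPM in every liver, and Angptl4 in HFD splits into A and B near 65 to 70.4 CPM and C and D under 31 CPM.

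Ppara RNA was 248, 258, 318 and 233 CPM in CD A to D and 457, 605, 518 and 513 CPM in HFD A to D. The lowest HFD liver stood well above the highest CD liver. The mean went from 264 ± 37.4 CPM to 523 ± 61.1 CPM (mean ± SD, n = 4 per diet), a log2 change of 0.98 (SE 0.13) with an adjusted p of 0.00116, and it stayed called in each of the 8 fits that left out 1 liver (adjusted p up to 0.00693).

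H3K9ac did not follow at the Ppara start. The gene lies at chr15:85734910-85806851 (mm10, plus strand), and its start was covered by a region of 3930 bases at chr15:85734144-85738073. That region held 59.1% of the signal in the 18 regions named for Ppara. It measured 214, 232 and 192 CPM in CD A, C and D and 232, 219.6 and 210.0 CPM in HFD A, B and D, with overlapping diets. The log2 change was 0.05 (95% interval -0.10 to 0.20, adjusted p = 0.882), so the interval lies below the log2 change of the RNA. The 250 bases before that start are shown because the mark over them was high in both diets. They come from RefSeq (GRCm38.p6, the mm10 assembly), chr15:85735526-85735775, plus strand, 5′ to 3′. Their GC content is 76.4%, and capitals mark the CREB3L3-type element CCACG and the cyclic AMP response element half-site TGACG:
Ppara: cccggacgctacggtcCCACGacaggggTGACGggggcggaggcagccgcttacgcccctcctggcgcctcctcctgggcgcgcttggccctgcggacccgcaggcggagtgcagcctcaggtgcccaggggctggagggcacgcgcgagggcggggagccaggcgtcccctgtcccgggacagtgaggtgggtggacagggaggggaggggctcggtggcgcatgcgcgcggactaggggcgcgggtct

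Further into Ppara the mark rose. Of the 43 regions of the 7 genes 6 were called, all higher in HFD, against 2.39% of all regions called, 0.835% higher and 1.55% lower. The authors' deposited table called 2.4% of all regions at the same threshold, and 5 of the 43. Ppara had 4 of these 6, all annotated as intronic. At chr15:85738419-85741490 the level was 29.7, 27.9 and 25.8 CPM in CD A, C and D and 43.2, 42.9 and 35.5 CPM in HFD A, B and D, with no overlap. Its log2 change was 0.55 (SE 0.11, adjusted p = 0.000686), and the call held without any 1 library (adjusted p up to 0.0314). The next region, chr15:85742346-85744083, rose from 21.9 ± 0.224 CPM to 29.0 ± 3.94 CPM (mean ± SD, n = 3 per diet, log2 change 0.41, adjusted p = 0.0487). That call was lost without CD A (0.126), CD C (0.169), CD D (0.0904), HFD A (0.339) and HFD B (0.340), with DESeq2 (0.0694) and among regions of at least median level (0.0739), and the authors' deposited table gave a false discovery rate of 0.0529. The intronic region chr15:85745890-85748819 had more signal in CD than both of these and did not pass. It went from 31.2 ± 0.781 CPM to 37.0 ± 0.916 CPM with no overlap (log2 change 0.25, adjusted p = 0.293).

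Deeper in the same gene lay the other called pair, both thinly covered. The region chr15:85772274-85772631 had 13, 15 and 4 reads in CD A, C and D and 29, 31 and 17 reads in HFD A, B and D. It changed by 1.3 on the log2 scale (SE 0.36, adjusted p = 0.0313), and the call was lost without CD D (0.197), HFD A (0.135) and HFD B (0.273). At chr15:85773198-85773711 the level was 3.31, 1.83 and 1.98 CPM in CD and 4.68, 5.73 and 4.61 CPM in HFD. The change was 1.08 on the log2 scale (SE 0.24, adjusted p = 0.00369), and the call was lost without CD C (0.0827) and HFD B (0.0948).

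The intronic rise went beyond the regions named for Ppara. Within the gene's RefSeq span 7 more regions had been named for Cdpf1, a gene that starts past the far end of Ppara, because its start was nearer. The broadest of these, chr15:85774492-85778490, is annotated as a Ppara intron. It was singled out after its values had been seen. Its level was 22.2, 15.3 and 14.9 CPM in CD A, C and D and 31.3, 34.8 and 28.3 CPM in HFD A, B and D, with no overlap (log2 change 0.85, SE 0.13, adjusted p = 5.96e-06). Cdpf1 RNA itself did not pass (3.13 ± 0.273 CPM in CD and 2.52 ± 0.662 CPM in HFD, adjusted p = 0.449). Over all 19 regions of the Ppara gene body 5 were called higher and 18 had a log2 change above 0, with a median of 0.55, while among 5 regions upstream of the start 0 were called. Over all regions 49.6% had a log2 change above 0. Summed over the 18 regions named for Ppara, the start included, the mark had a log2 change of 0.17 that did not pass (adjusted p = 0.352, in a fit over all genes in which 2.7% were called). The diet means summed over the 19 gene body regions came to 134 CPM in CD and 189 CPM in HFD, a sum that was not tested. The 1 region at the start had 213 and 220.4 CPM. Farther upstream, 2 of 19 regions named for Lincppara, a long noncoding RNA gene, fell (0 rose). The larger one, over the Lincppara start at chr15:85701308-85708452, went from 114 ± 12 CPM to 90.9 ± 2.35 CPM (log2 change -0.33, adjusted p = 0.0110).

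**Figure D2:**
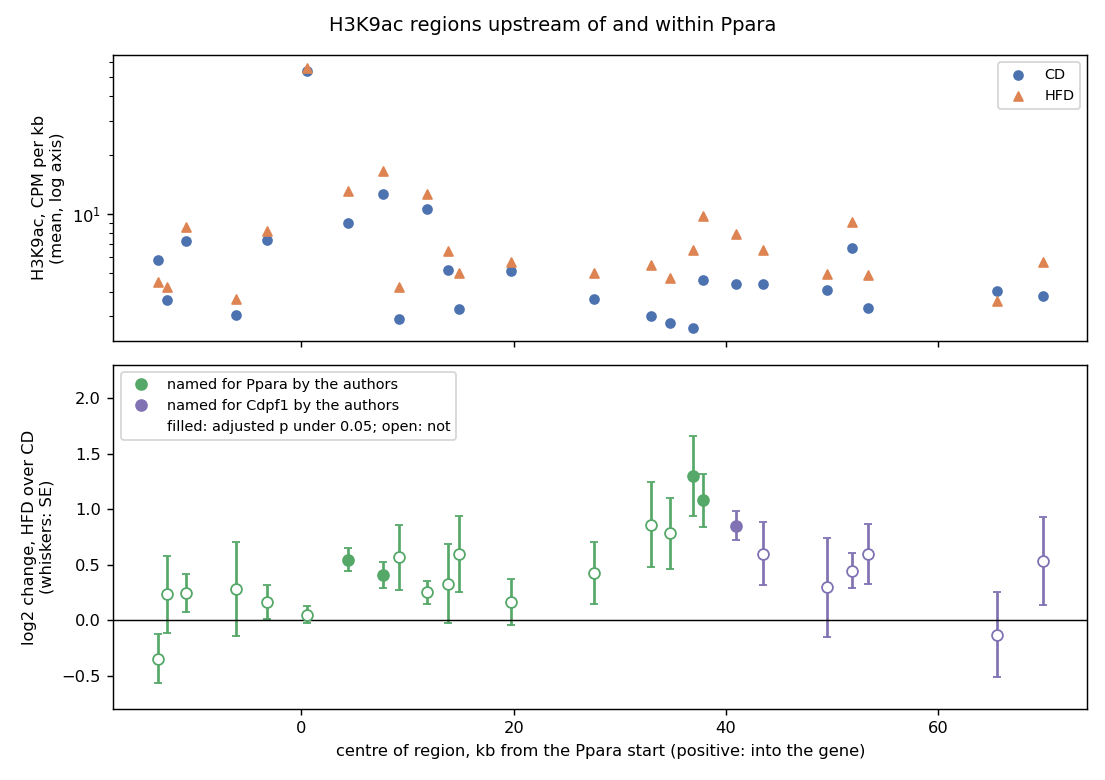
H3K9ac regions along Ppara, placed by the distance of their centre from the start in kilobases. The upper panel gives the mean level in CPM per kilobase on a log axis for CD and HFD (n = 3 each), the lower panel the log2 change with its SE. The region at the start has the highest level and a log2 change of 0.05, and all 5 called regions (filled) lie inside the gene.

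Genes that PPAR-alpha is known to switch on were called in both directions, as were all genes (3.63% higher and 3.64% lower). These shares stand beside every list count here and below, and several of the lists are short. Among 20 genes of mitochondrial oxidation and ketogenesis 3 rose, 2 fell and 15 did not pass, with a median log2 change of 0.13. Cpt1a, which admits fatty acids to mitochondria, rose from 315 ± 31.0 CPM to 583 ± 68.3 CPM (mean ± SD, n = 4, log2 change 0.89, adjusted p = 0.00131), and Bdh1, which makes the ketone body 3-hydroxybutyrate, from 178 ± 9.38 CPM to 309 ± 25.3 CPM (0.79, adjusted p = 0.000806). Pdk4, a kinase that restrains pyruvate oxidation and a standard fasting-induced target, fell from 29.3 ± 11.1 CPM to 3.52 ± 0.377 CPM (log2 change -3.06, adjusted p = 0.000122). Among 17 peroxisomal and microsomal targets 0 rose and 2 fell, with a median of 0.18. The thioesterase gene Acot1 fell from 17.5 ± 3.13 CPM to 9.28 ± 1.17 CPM (log2 change -0.92, adjusted p = 0.00506, uncertain because reads can be shared with its close relatives), and Pex11a, a peroxisome division gene, had a log2 change of -0.54 (adjusted p = 0.0316). The Pex11a call was lost without HFD C (0.0729), HFD D (0.0660), CD B (0.0902), CD C (0.0711) or CD D (0.0822).

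Among 16 measured targets of lipid uptake, droplets and transport 2 rose and 2 fell (median log2 change -0.19). Vldlr, a lipoprotein receptor, rose from 1.42 ± 0.557 CPM to 5.47 ± 1.21 CPM (mean ± SD, n = 4, log2 change 1.94, adjusted p = 0.00273) and the fatty acid receptor gene Cd36 from 18.7 ± 3.34 CPM to 33.5 ± 5.52 CPM (0.84, adjusted p = 0.0091). Cidec, a lipid droplet protein, fell by 1.45 on the log2 scale (adjusted p = 0.0212), a call lost without HFD B (0.0771), HFD C (0.0557), HFD D (0.0503), CD B (0.0670) or CD C (0.0637). Among 16 partners and coregulators of PPAR-alpha 1 rose and 2 fell. The sister receptor gene Ppard fell from 32.9 ± 4.25 CPM to 6.31 ± 0.504 CPM (log2 change -2.38, SE 0.13, adjusted p = 7.69e-06), opposite in sign to Ppara. The other sister, Pparg, had a log2 change of -1.11 (adjusted p = 0.0253), lost without CD A (0.0607), CD B (0.0564), HFD B (0.0679), HFD C (0.0614) or HFD D (0.0607). Ppargc1b, a coactivator gene related to Ppargc1a, rose from 3.56 ± 1.11 CPM to 7.53 ± 1.09 CPM (log2 change 1.08, adjusted p = 0.0117).

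Creb3l3 passed the test in neither assay. Its RNA was 245, 213, 243 and 249 CPM in CD A to D and 293, 288, 230.5 and 242 CPM in HFD A to D. HFD A and B lay above all CD livers and HFD C and D within their range. Its log2 change of 0.15 did not pass (95% interval -0.09 to 0.39, adjusted p = 0.517), and a change as large as that of Ppara lies outside the interval.

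The Creb3l3 mark was concentrated away from the start that the authors' distances used. The gene (chr10:81084329-81098872, minus strand) had 7 regions, of which 0 were called. The authors' start at base 81098872 was covered by a weak region of 414 bases, chr10:81098605-81099018, with 18, 20 and 19 reads in CD A, C and D and 12, 12 and 11 in HFD A, B and D. All HFD values there lay below all CD values, as they did in 1 direction or the other in 15.4% of all regions, and the log2 change of -0.66 (SE 0.38) did not pass (adjusted p = 0.559). A broad region of 5868 bases, chr10:81089884-81095751, held 89.2% of the Creb3l3 signal and covered a second RefSeq start of the gene at base 81092591. It measured 105, 102 and 91.8 CPM in CD A, C and D and 119, 111 and 98.7 CPM in HFD A, B and D, overlapping between the diets (log2 change 0.14, SE 0.08, adjusted p = 0.568). Per kilobase the broad region had 17.8 CPM and the weak one 3.39 CPM. The comparison with the second start was added after the data had been seen. The 250 bases before each start are shown to set the marked and the weakly marked one side by side, from RefSeq (GRCm38.p6, minus strand, 5′ to 3′), chr10:81092592-81092841 and chr10:81098873-81099122. Capitals mark, in order, the cyclic AMP response element half-site TGACG, the nuclear receptor half-site AGGTCA, the CREB3L3-type element CCACG and, at the very end, the first bases of the reverse of that element, which runs over the start:
Creb3l3, start under the broad region: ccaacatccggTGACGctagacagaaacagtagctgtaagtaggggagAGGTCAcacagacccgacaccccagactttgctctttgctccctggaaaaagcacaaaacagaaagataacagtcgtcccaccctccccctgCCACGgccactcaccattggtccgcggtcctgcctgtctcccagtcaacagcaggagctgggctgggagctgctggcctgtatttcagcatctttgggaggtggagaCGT
Creb3l3, start under the weak region: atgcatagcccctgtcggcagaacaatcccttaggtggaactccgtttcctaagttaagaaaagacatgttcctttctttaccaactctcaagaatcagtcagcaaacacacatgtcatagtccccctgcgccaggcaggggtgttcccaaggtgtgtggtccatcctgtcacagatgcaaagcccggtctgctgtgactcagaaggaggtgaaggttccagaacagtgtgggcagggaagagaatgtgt

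None of the motifs searched, on either strand, was found in the window of the weakly marked start. Of 10 measured genes for CREB3L3 processing and relatives 0 rose and 1 fell, Creb3l1 (log2 change -0.96, adjusted p = 0.0155), a call lost without CD B (0.0538) or HFD B (0.0649). Of 14 genes known as CREB3L3 targets 5 rose and 2 fell (median log2 change 0.22). Those with the smallest p were Bdh1, described above, and the fatty acid desaturase genes Fads2, from 327 ± 30.9 CPM to 791 ± 196 CPM (mean ± SD, n = 4, log2 change 1.27, adjusted p = 0.00189), and Fads1, from 601 ± 41.9 CPM to 1017 ± 195 CPM (0.76, adjusted p = 0.0102).

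At Fgf21 the mark was called and the RNA was not. FGF21 is a hormone that liver releases in fasting and on protein restriction, and its gene is a shared target of PPAR-alpha and CREB3L3. Its RNA was low throughout, with 33, 91, 34 and 82 reads in CD A to D and 58, 42, 21 and 47 reads in HFD A to D. That came to 1.02, 2.43, 1.01 and 2.49 CPM in CD and 1.67, 1.27, 0.64 and 1.43 CPM in HFD. CD B and D were the highest livers, CD A and C lay among the HFD livers, and HFD C was the lowest of all 8. The log2 change was -0.47 (95% interval -1.32 to 0.37) and did not pass (adjusted p = 0.567). With 1 liver left out the estimate ran from -0.662 to -0.255. The end at -0.255 came from leaving out CD D and the end at -0.662 from leaving out CD C. Both of these letters have an H3K9ac library in their diet. Dropping HFD C gave -0.259 and dropping CD B gave -0.266, and neither letter has such a library in its diet. The part of livers missing from the H3K9ac assay was not tested.

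H3K9ac over Fgf21 nevertheless rose, and it was the call with the smallest p among the 43 regions. The region chr7:45613910-45616221 spans 2312 bases, covers the start at base 45615490 and nearly the whole gene (chr7:45613890-45615490, minus strand), and held 86.9% of the signal in the 4 Fgf21 regions. Its level was 13.1, 21.3 and 18.9 CPM in CD A, C and D and 38.8, 31.4 and 32.7 CPM in HFD A, B and D. Every HFD liver lay above every CD liver. The mean went from 17.8 ± 4.21 CPM to 34.3 ± 3.90 CPM (SD, n = 3), a log2 change of 0.95 (95% interval 0.69 to 1.21, adjusted p = 4.14e-07), which ranked 90th by p among all regions. Summed over all 4 regions the gene's log2 change was 0.85 (adjusted p = 0.00351). The call held without any 1 library (adjusted p up to 7.01e-05). The region over the start of the neighbouring gene Fut1 (chr7:45617248-45617719) had a log2 change of 0.37 (adjusted p = 0.773). The intervals of mark and RNA did not overlap, but the assays come from separate libraries and their difference was not tested.

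The 250 bases before the Fgf21 start are shown because the mark over them rose, from RefSeq (GRCm38.p6), chr7:45615491-45615740, minus strand, 5′ to 3′. Capitals mark, in order, a CREB3L3-type element, a cyclic AMP response element half-site read on the other strand, and the E-box CACGTG, of the kind that clock factors bind, which overlaps a further CREB3L3-type element on the other strand:
Fgf21: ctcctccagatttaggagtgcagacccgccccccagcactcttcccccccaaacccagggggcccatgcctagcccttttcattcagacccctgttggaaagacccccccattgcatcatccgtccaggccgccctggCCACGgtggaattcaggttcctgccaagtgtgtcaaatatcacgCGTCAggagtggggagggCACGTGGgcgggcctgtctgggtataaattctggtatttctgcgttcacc

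The E-box lies at bases -50 to -45 from the start. It was the sole CACGTG in the 6 windows that RefSeq gave for 5 of the 7 genes (300 bases each, 250 before and 50 after a start), while 7.15% of 32851 such windows hold one. The Ppargc1a window is at a RefSeq start (base 51567725) that lies 13634 bases from the nearest H3K9ac region and is not the start the authors' distances used (base 51553921). TGACG was in 4 of the 6 windows, that of Ppargc1a among them, and in 20.8% of all, CCACG in the same 4 and in 32.8%, and AGGTCA in 1 and in 16.3%. The D-box TTANGTAA was in 0 of the 6 and in 2.32% of all, and the exact DR1 element of PPAR-alpha and RXR in 0 and in 0.381%. Windows were searched on both strands, and CCACG and CACGTG can overlap. Of 6 genes for FGF21 receptors and signalling 0 rose and 1 fell, Fgfr1 (log2 change -0.71, adjusted p = 0.0471), a call lost without CD A (0.0901), CD B (0.130), CD C (0.127), CD D (0.0742), HFD A (0.0533), HFD B (0.0771) or HFD C (0.104) and with library totals (0.0604).

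Of the 7 genes, Apoa4 alone was called in RNA and in the mark over its start. Its product is carried on chylomicrons and high-density lipoprotein, and CREB3L3 is a known activator of the gene in liver. RNA was 235, 169.9, 164 and 201 CPM in CD A to D and 928, 678, 632 and 660.4 CPM in HFD A to D. HFD A stood above the other HFD livers, and all 4 lay far above CD. The mean went from 192 ± 32.7 CPM to 725 ± 137 CPM (SD, n = 4), a log2 change of 1.91 (SE 0.16, adjusted p = 0.000127), the largest of the 7, and it was called without any 1 liver (adjusted p up to 0.00105).

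The Apoa4 region at chr9:46239665-46244960 covers the whole gene (chr9:46240844-46243458, plus strand) and held 91.3% of its signal. It measured 45.8, 43.4 and 43.9 CPM in CD A, C and D and 65.2, 64.4 and 53.4 CPM in HFD A, B and D, with no overlap. The log2 change was 0.46 (SE 0.09, adjusted p = 0.000912), smaller than in the RNA, and the call held without any 1 library (adjusted p up to 0.0346). The other 3 regions of Apoa4 did not pass (log2 changes -0.27 to 0.49). In the same gene cluster Apoa1, Apoc3 and Apoa5 RNA did not pass (log2 changes 0.09, 0.28 and 0.30), and 0 of their 27, 2 and 4 regions were called. Apoa4 is also an intestinal gene. Of 6 enterocyte markers 1, Fabp2, was in the table and rose, with 44.4 to 55.8 CPM in CD and 118 to 210 CPM in HFD, while Vil1, Alpi, Sis, Lct and Cdx2 had no line. The part of such cells in the Apoa4 result was not tested. The 250 bases before the Apoa4 start are shown as those under the called region, from RefSeq (GRCm38.p6), chr9:46240594-46240843, plus strand, 5′ to 3′. The absence of capitals shows that no motif searched was found in them:
Apoa4: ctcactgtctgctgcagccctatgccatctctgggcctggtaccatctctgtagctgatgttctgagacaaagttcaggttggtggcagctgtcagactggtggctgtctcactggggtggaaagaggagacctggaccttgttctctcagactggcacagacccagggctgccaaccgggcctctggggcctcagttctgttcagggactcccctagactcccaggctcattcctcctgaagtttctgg

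**Figure D3:**
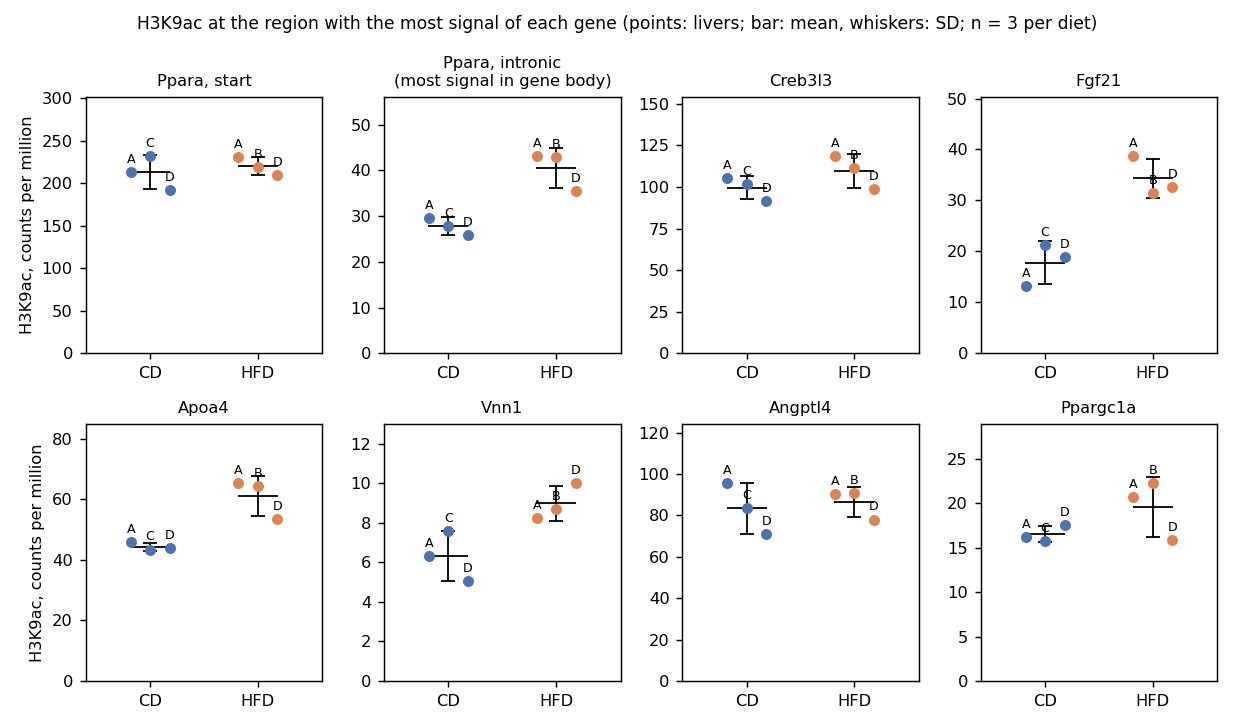
H3K9ac level in CPM (vertical axes, each from 0) in 3 CD and 3 HFD livers at the region with the most signal of each gene, with a second panel for the intronic Ppara region with the most signal, and the mean and SD. Signal was averaged over both diets, and in CD alone another intronic Ppara region, not shown, had more. HFD livers lie above all CD livers at Fgf21, Apoa4, Vnn1 and intronic Ppara, and overlap with CD at the Ppara start, Creb3l3, Angptl4 and Ppargc1a.

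Vnn1 rose in the RNA by a narrow margin. Its product, pantetheinase, releases pantothenic acid and cysteamine, and the gene is a sensitive PPAR-alpha target in liver. RNA was 34.8, 50.4, 42.0 and 31.8 CPM in CD A to D and 65.3, 52.5, 66.7 and 54.7 CPM in HFD A to D. CD B and HFD B nearly met, but the diets did not overlap. The log2 change was 0.59 (SE 0.15, adjusted p = 0.0422). The call was lost without CD A (0.121), CD C (0.0871), CD D (0.101), HFD A (0.0703), HFD B (0.0839), HFD C (0.0932) or HFD D (0.0547), and with library totals (0.0929). The single Vnn1 region, chr10:23894738-23895487, begins 50 bases after the start of the gene (chr10:23894688-23905344). It measured 6.34, 7.58 and 5.05 CPM in CD A, C and D and 8.26, 8.69 and 9.99 CPM in HFD A, B and D. The diets did not overlap, but the log2 change of 0.49 (95% interval 0.12 to 0.86) did not pass (adjusted p = 0.207). Of 10 genes of pantetheine and coenzyme A metabolism 1 rose, Vnn3, a relative of Vnn1, from 56.0 ± 7.5 CPM to 90.8 ± 21.1 CPM (mean ± SD, n = 4, log2 change 0.70, adjusted p = 0.0279). Its call was lost without CD A (0.0864), CD B (0.0849), CD C (0.0836) or HFD B (0.0993).

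Angptl4 did not pass in either assay, and its RNA differed widely between livers of the same diet. Its product inhibits lipoprotein lipase and rises with fasting in many tissues. RNA was 46.4, 57.3, 31.3 and 29.9 CPM in CD A to D and 70.3, 64.7, 26.7 and 30.4 CPM in HFD A to D. In both diets A and B were the high livers and C and D the low ones, and the means of 41.2 ± 13 and 48.0 ± 22.7 CPM (SD, n = 4) lay within that spread. The log2 change was 0.22 (95% interval -0.51 to 0.95, adjusted p = 0.791). Its estimate turned to -0.04 without HFD A. Markers of other liver cells also differed between the HFD livers. Relative to the CD mean, 10 sinusoidal endothelium markers had a mean log2 level of -0.49, -0.31, 0.57 and 0.55 in HFD A to D, 10 stellate cell markers one of -0.71, -0.53, 0.07 and 0.31, and 10 Kupffer cell and macrophage markers one of -0.65, 0.0, 0.17 and 0.83, with 0 of 10 called in each. These 3 lists were lower in HFD A and B than in C and D. In CD A to D the endothelium list had -0.15, -0.11, 0.33 and -0.07. The stellate list had 0.02, 0.15, 0.04 and -0.21 there, and the Kupffer list 0.14, 0.33, -0.2 and -0.26. In CD the endothelium list was also lower in A and B, but D (-0.07) lay close to B (-0.11) and C alone stood apart. The Kupffer list was higher in A and B there, and the stellate list was neither higher nor lower in them. The 9 measured hepatocyte markers had 0.17, 0.19, 0.11 and 0.08 in HFD A to D, higher in A and B, with 0 called. In CD A to D they had 0.04, -0.04, -0.04 and 0.04, without that division. The 1 measured adipocyte marker was lower in HFD A and B (-0.27, -0.31, 0.28 and 0.12). The enterocyte marker Fabp2 was higher in them (2.05, 1.58, 1.26 and 1.22). The lists for cholangiocytes and lymphocytes did not divide the HFD livers into A and B against C and D. The 6 measured cholangiocyte markers had -0.97, -0.63, -0.95 and -0.48, below CD in every HFD liver, with 1 called lower, and a summed level of 84.6 to 100.5 CPM in CD and 57.4 to 83.7 CPM in HFD. The 3 measured lymphocyte markers had -0.24, 0.08, -0.19 and 0.35, with 0 called. The part of these cells in the Angptl4 spread was not tested. The broad region over the Angptl4 start (chr17:33778291-33782266, in a gene at chr17:33774900-33781575, minus strand) held 87.0% of its signal. It measured 95.4, 83.6 and 71.0 CPM in CD A, C and D and 90.4, 90.7 and 78.0 CPM in HFD A, B and D (log2 change 0.05, adjusted p = 0.9). A region near the far end of the gene, chr17:33774879-33775553, annotated as the 3′ UTR, had HFD values all below CD (7.15, 7.64 and 7.14 against 9.20, 8.33 and 9.41 CPM) and a log2 change of -0.29 that did not pass (adjusted p = 0.592). Of 11 measured genes of this family and of lipase control 1 rose and 1 fell. Lipg, endothelial lipase, rose from 6.69 ± 0.896 CPM to 18.6 ± 4.03 CPM (mean ± SD, n = 4, log2 change 1.48, adjusted p = 0.000637). Lpl, lipoprotein lipase, fell from 34.0 ± 7.24 CPM to 19.3 ± 5.24 CPM with overlapping diets (log2 change -0.82, adjusted p = 0.0423). That call was lost without CD A (0.106), CD B (0.121), CD C (0.113), HFD A (0.0603), HFD B (0.123) or HFD C (0.0635) and with library totals (0.0648).

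Ppargc1a rose in the RNA with no region called. It encodes PGC-1alpha, a coactivator of PPAR-alpha and other receptors that drives gluconeogenesis and mitochondrial genes in fasting. RNA was 6.02, 7.91, 8.63 and 6.83 CPM in CD A to D and 13.5, 18.8, 9.96 and 16 CPM in HFD A to D. HFD C was the lowest HFD liver, still above CD C. The mean went from 7.35 ± 1.16 CPM to 14.6 ± 3.74 CPM (SD, n = 4), a log2 change of 0.98 (SE 0.19, adjusted p = 0.0119), called without any 1 liver (adjusted p up to 0.0451). Of its 5 regions all had a log2 change above 0 (0.20 to 0.65) and 0 were called. The region over the start, chr5:51553516-51554091, had 3.66, 2.83 and 3.66 CPM in CD A, C and D and 5.96, 4.69 and 5.16 CPM in HFD A, B and D. These did not overlap, and the log2 change of 0.65 (95% interval 0.21 to 1.08) did not pass (adjusted p = 0.126). Just downstream, chr5:51551852-51553257 held 62.2% of the Ppargc1a signal and overlapped between the diets (log2 change 0.26, adjusted p = 0.509). Of 14 partners and targets of PGC-1alpha 2 rose and 0 fell, Ppargc1b and Pck1. Pck1, the gluconeogenic enzyme, went from 1317 ± 321 CPM to 2704 ± 1064 CPM (log2 change 1.04, adjusted p = 0.0470). Its call was lost without CD A (0.104), CD B (0.0549), CD C (0.128), CD D (0.121), HFD A (0.0794) or HFD B (0.162), with library totals (0.0523) and among genes of at least median level (0.0573).

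**Figure D4:**
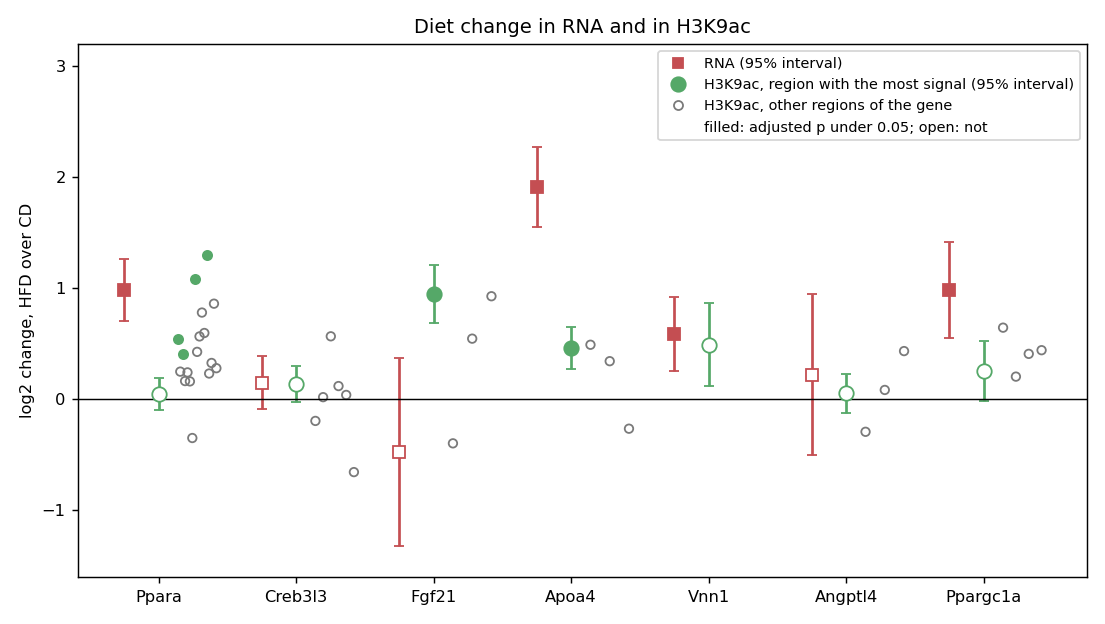
Log2 change (HFD over CD, vertical axis) of the RNA (squares) and of the H3K9ac region with the most signal (large circles), each with a 95% interval, beside the other regions of each gene (small circles). Apoa4 is filled in both, Fgf21 in the mark alone with its RNA estimate below 0, and Ppara in the RNA and in 4 smaller regions but not at its start.

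Set side by side, mark and RNA were both called at Apoa4 and, away from the start, at Ppara. The RNA alone was called at Vnn1 and Ppargc1a, the mark alone at Fgf21, and neither at Creb3l3 and Angptl4. Of the 43 regions 37 had a log2 change above 0 (86.0%, against 49.6% of all regions), and the diets did not overlap in 13, of which 11 had HFD above. These are 30.2% and 25.6% of the 43, beside 15.4% and 7.05% of all regions. Their median log2 change was 0.33, beside -0.003 over all regions. Ppara alone supplied 18 of the 43, 17 of the 37 and 6 of the 11, and regions of 1 gene in the same libraries are not independent units. Mixed patterns of mark and RNA were common over all genes. Of 417 genes with higher RNA and a region, 71.2% had no region called, and 26.4% had regions called higher and none lower. Of 307 genes with a region called higher, 36.2% had higher RNA and 63.2% RNA that did not pass, and 35 (11.4%), Fgf21 among them, had an RNA log2 change below 0.

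The wider fasting and clock genes were called in both directions. Of 20 genes of the glucagon, insulin and glucocorticoid axis 5 rose and 3 fell (median log2 change 0.20). Igfbp1, which insulin represses, fell from 93.8 ± 30.9 CPM to 16.1 ± 4.10 CPM (mean ± SD, n = 4, log2 change -2.54, adjusted p = 0.000498). The clock gene Per1, also a glucocorticoid target, rose from 2.63 ± 1.07 CPM to 33.4 ± 17.0 CPM (log2 change 3.66, adjusted p = 0.000609), and Klf15, a fasting-induced regulator of amino acid breakdown, from 91.9 ± 10.7 CPM to 195 ± 55.7 CPM (log2 change 1.08, adjusted p = 0.00672). Of 19 clock and PAR bZIP genes 12 rose and 4 fell (median log2 change 1.27). Dbp, a D-box activator, rose by 6.57 on the log2 scale (adjusted p = 2.45e-05) and Nr1d2, a clock repressor, by 1.78 (adjusted p = 0.000122), while Nfil3, the D-box repressor, had a log2 change of -1.72 (adjusted p = 6.21e-05). Ppara, Ppargc1a, Pck1 and Fgf21 are known to vary over the day and with feeding. The part of clock phase and of feeding state in the results of the 7 genes was not tested.

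**Figure D5:**
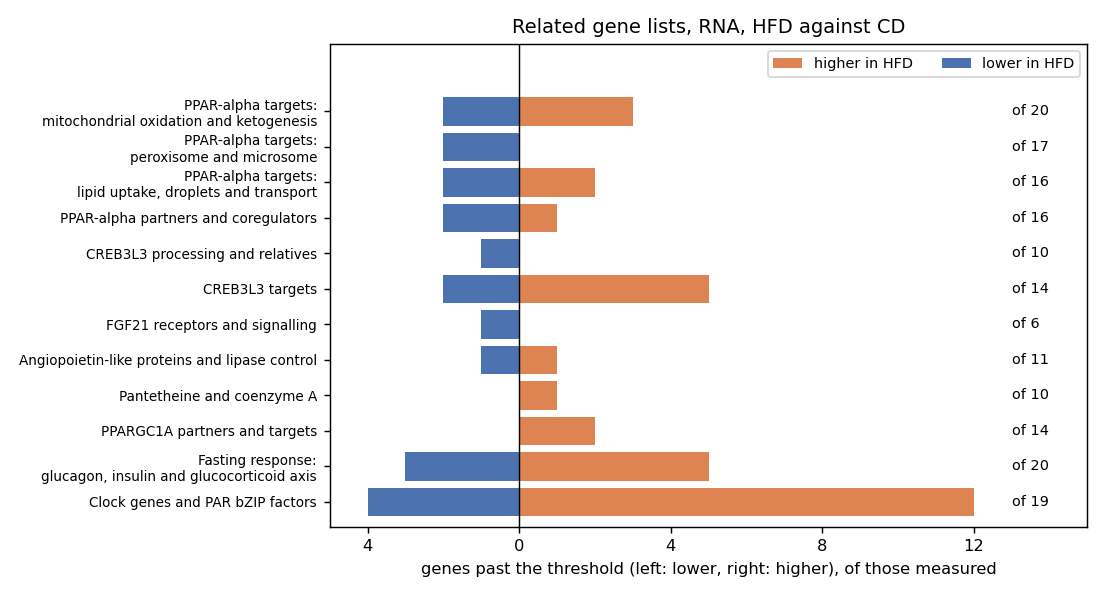
Number of genes past the threshold in each of 12 related lists, higher in HFD to the right and lower to the left, beside the number measured. The clock list has 12 higher and 4 lower of 19, the CREB3L3 targets 5 higher and 2 lower of 14, and the peroxisomal PPAR-alpha targets 0 higher and 2 lower of 17. Of all genes 3.63% were higher and 3.64% lower.

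Within the diets, Pearson correlations of log2 CPM over the 8 RNA libraries, each diet centred on its mean, ran from -0.67 (Ppara with Apoa4) to 0.63 (Creb3l3 with Apoa4) over their pairs. They are descriptions over libraries in which depth and tissue makeup also vary. Among the 6167 genes of at least median level, the nearest by the same measure were Pck1 for Angptl4 (0.99), Cpq for Apoa4 (0.99), Gls2 for Creb3l3 (0.99), Gas6 for Fgf21 (0.97), Dpyd for Ppara (0.96) and Ppm1g for Vnn1 (0.94). Of these, Pck1 was called higher in HFD, and the others did not pass. Each value is the highest among all those genes over only 8 libraries, so selection alone raises it.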

How the data were processed

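RNA (4 livers per diet) and H3K9ac chromatin (3 per diet) were compared between HFD and CD. The series lists 17 samples, of which 1 input library and 2 open-chromatin libraries were not analysed here. Per the file headers, the authors deposited raw read counts per gene and per region, log2 FPKM for genes, and their own log2 fold changes, p-values and false discovery rates. Their regions form 1 set common to all libraries. Per the submitters' processing notes the genome build was mm10. How reads were aligned, counted, called into peaks and tested is not given in the sources used here. 4999 blank lines of the RNA table and 72 repeated lines of the H3K9ac table were left out, and 0 value columns were unmatched.

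Counts were tested with edgeR 4.0.16 (R 4.3.3, glmQLFit and glmQLFTest) after TMM scaling and filterByExpr (0 genes and 0 regions removed), with diet as the only term, over all genes and all regions, two-sided, with Benjamini-Hochberg adjustment at 0.05. CPM are after TMM scaling. SEs come from the F statistic. The fit was tested on simulated data. A floor of 3 counts was worth 0.0798 to 0.0943 CPM per RNA library and 0.247 to 0.324 CPM per H3K9ac library. The series' design gives 4 mice per diet, and each letter was taken as 1 liver.

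The members and lists were chosen with earlier results of these data known. Text names all 7 members, regions that were called or within 1000 bases of a start by the authors' centre-based distance or that held most of a gene's signal, up to 3 called genes per list with the smallest p, and for each member the gene with the highest correlation (for Ppargc1a it is not reported here). Alternatives were DESeq2 1.42.0, RLE factors, library totals, no filter, genes at or above the median level, a replicate block, leaving out each library, and other ways to assign regions. Promoter sequences for 5 of the 7 genes were taken from RefSeq (GRCm38.p6).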

Additional observations from a re-analysis of the deposited data

Results flagged for a closer look

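In 64 groups of 4 livers (the named genes in each diet), 5 had 1 liver far from the other 3, where chance flags about 1 in 20 groups. In each case the gap between that liver and its nearest neighbour, as a share of the group's range, is given. Creb3l3 in CD had a share of 0.832, with 1 liver at 213 CPM and the others at 243 to 249 CPM. Apoa4 in HFD had a share of 0.844, with 1 liver at 928 CPM and the others at 632 to 678 CPM. Lpl in CD had 0.849 (1 liver at 23.3 CPM, the others at 36.2 to 38.5 CPM), Vnn3 in CD 0.856 (1 at 67.1 CPM, the others at 51.1 to 53.4 CPM) and Nfil3 in HFD 0.957 (1 at 22.4 CPM, the others at 16.9 to 17.1 CPM).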

How the results depend on the processing

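No result changed direction past the threshold under any alternative run. The calls of Ppara, Apoa4 and Ppargc1a in the RNA, and of the Fgf21 region, the Apoa4 region and the first intronic Ppara region in the H3K9ac, were kept in every alternative in which they were tested. Genes passing the threshold numbered 897, and 543 with a filter at the median (fewer genes tested), 1405 with DESeq2 and 478 to 1107 with 1 library left out. Regions numbered 1372, and 884 with the same filter, 798 with DESeq2 and 563 to 1862 with 1 library left out. Called members in the RNA numbered 4, and 2 with the filter at the median, where Vnn1 was lost (adjusted p = 0.0598) and Ppargc1a lay below the level tested, and 3 to 4 with 1 library left out. Called member regions numbered 6, and 3 to 6 with 1 library left out. Members with a called region numbered 3, and 1 (Fgf21) when regions were limited to those within 1000 bases of a start, or to the one of these with the highest signal, since the called Ppara regions and the centre of the Apoa4 region lie farther away. With counts summed per gene they numbered 2, Ppara being lost (adjusted p = 0.352). Library totals moved the RNA split from 448 higher and 449 lower to 367 and 492. In the RNA the letters did not pair the livers, with same-letter correlations of 0.295, 0.061, 0.235 and -0.222. Different letters there ran from -0.414 to 0.368. In the H3K9ac the same-letter values were 0.09 and 0.081, all small but above the -0.118 to 0.046 of different letters. Whether the letters pair the H3K9ac livers is thus not settled. With the replicate block 826 genes, 1277 regions and 3 members in the RNA were called (Vnn1 at adjusted p = 0.0516), and 3 of the member regions. The regions lost were 3 of the 4 called inside Ppara, at starts 85742346 (0.178), 85772274 (0.0671) and 85773198 (0.160), and the related genes lost were Fgfr1 (0.0587), Lpl (0.0852) and Vnn3 (0.0509). By CPM, Ppara ranked 1 of the 7 in CD and Apoa4 3, against 3 and 1 by log2 FPKM. Fgf21 RNA rested on 21 to 91 reads per liver and the smallest called Ppara region on 4 to 31 per library, and how far depth limits their tests was not tested.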
